A study of Homo sapiens with 42 samples.

Results

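The short arm of chromosome 9 (9p), from its telomere to 40 Mb, was examined in ATAC-seq libraries of 4 EGFR mutant lung adenocarcinoma cell lines, PC9, H1975, HCC827 and HCC2935. Members were all counted regions that start below 40 Mb, with a mean of at least 5 counts per library of their line, other than regions assigned to 2 genes that are not reported here. This gave 1156 members of 502962 regions in PC9, 1849 of 496892 in H1975, 1156 of 350366 in HCC827 and 1353 of 361905 in HCC2935, so 5514 of 1712125 in all. The stretch was chosen by the lower counts of its regions in the H1975 libraries labelled AZD5153 than in their controls, so that every value of that group against its control is given as a description without a test. At the count minimum, the lowest member mean was 5.0 in each line, and the highest mean left out was 4.89 to 4.92. At the 40 Mb limit, the last members started between 39809481 and 39809543, and the next counted regions of the tables started between 41352273 and 42534886.

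The 42 libraries formed 14 groups of 3, which the series design calls biological triplicates. Drug tolerant persister cells (DTP) of each line had been exposed for 24 days to osimertinib at 500 nM, an inhibitor of mutant EGFR. The sequential combination (combo) was 21 days of osimertinib and then 3 days of AZD5153 at 150 nM, an inhibitor of BET bromodomain proteins, and whether osimertinib stayed on in these last days is not stated in the labels. Control cells spent 21 days without drug and 3 days in DMSO. In PC9 and H1975 only, a further group received the same 3 days of AZD5153 after 21 days without drug. Titles and design name ATAC-seq, in which a transposase tags open DNA, whereas the protocol given for extraction is that of an H3K27ac ChIP-seq experiment. The values are taken here as ATAC-seq counts.

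Accessible regions are places where nucleosomes leave DNA open, at gene starts and at enhancers, and the read count of such a region depends on how open it is, in how many cells, and on how many copies of the DNA each cell holds. In counts from pooled cells these cannot be told apart. The arm carries the type I interferon cluster, JAK2 and the checkpoint ligand genes CD274 and PDCD1LG2 in its telomeric part, and a dense group of genes for protein handling, RNA processing and metabolism towards the centromere.

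The sum of counts in a library was 3989287 to 5193390 in PC9, 6200672 to 10062505 in H1975, 1724680 to 4242868 in HCC827 and 3968690 to 8066287 in HCC2935. Promoters of all 6 epithelial marker genes (such as EPCAM, KRT8 and CDH1) were among the counted regions in each line, with summed levels of 199 to 470 CPM (counts scaled to a common library total) over all libraries, and none of the 4 lymphoid markers had one. Of 3 endothelial markers, 2 had a promoter region in PC9 and H1975, 1 in HCC2935 and none in HCC827, with summed levels of up to 29.5 CPM. Of 3 fibroblast markers, 1 had one in each line but HCC827, with up to 20.7 CPM. The part of other cell types in the results was not tested. The libraries of a group differed little beyond counting noise in PC9 (biological coefficient of variation 0.988%) and H1975 (3.2%), more in HCC2935 (10.2%), and widely in HCC827 (45.1%), so that p-values may measure technical spread in the first pair of lines. For this reason counts of calls are also given with the 3 libraries of a group summed and the spread of HCC2935 assumed. Libraries labelled AZD5153 in H1975 had the widest shifts along the genome of the 10 comparisons. Over 297 bins of 10 Mb with at least 50 tested regions, the bin medians of AZD5153 against control had an SD of 0.43 on the log2 scale and ran from -1.39 to 1.55, while in PC9 the same comparison had an SD of 0.0638 over 298 bins. HCC2935 DTP against control came next, with an SD of 0.335 and bins from -1.04 to 0.97, 32 of them at 0.5 or higher against 19 for H1975 AZD5153, and the other comparisons had SDs of 0.0576 to 0.211.

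Promoter sequences are shown for 5 of the genes listed below: JAK2 and the ribosomal protein gene RPS6 from the telomeric part, ELAVL2 with the lowest value among the listed promoters, MOB3B as the last listed promoter before the boundary and ACO1 as the first one after it. They are RefSeq sequences of GRCh38.p14, 300 bases each from 250 bases before to 50 bases after the gene start, written along the gene's strand. Capitals mark GGGCGG (the GC box), CCAAT and TATAAA on either strand.
JAK2: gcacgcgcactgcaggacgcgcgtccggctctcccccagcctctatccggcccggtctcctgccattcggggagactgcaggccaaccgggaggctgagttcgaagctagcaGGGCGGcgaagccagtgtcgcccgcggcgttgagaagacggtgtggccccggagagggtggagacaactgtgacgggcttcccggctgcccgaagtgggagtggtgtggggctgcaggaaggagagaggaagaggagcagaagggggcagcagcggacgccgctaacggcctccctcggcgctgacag
RPS6: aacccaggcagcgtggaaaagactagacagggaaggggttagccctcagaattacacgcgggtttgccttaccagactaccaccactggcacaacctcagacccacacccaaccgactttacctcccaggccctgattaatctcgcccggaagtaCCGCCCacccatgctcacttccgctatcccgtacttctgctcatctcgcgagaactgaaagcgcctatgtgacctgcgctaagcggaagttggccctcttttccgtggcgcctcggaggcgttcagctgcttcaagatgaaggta
ELAVL2: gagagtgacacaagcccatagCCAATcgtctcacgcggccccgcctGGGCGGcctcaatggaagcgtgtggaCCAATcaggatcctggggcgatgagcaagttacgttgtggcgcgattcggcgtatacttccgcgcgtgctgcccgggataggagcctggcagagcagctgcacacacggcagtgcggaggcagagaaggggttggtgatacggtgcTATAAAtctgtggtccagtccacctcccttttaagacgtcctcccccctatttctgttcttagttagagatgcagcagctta
MOB3B: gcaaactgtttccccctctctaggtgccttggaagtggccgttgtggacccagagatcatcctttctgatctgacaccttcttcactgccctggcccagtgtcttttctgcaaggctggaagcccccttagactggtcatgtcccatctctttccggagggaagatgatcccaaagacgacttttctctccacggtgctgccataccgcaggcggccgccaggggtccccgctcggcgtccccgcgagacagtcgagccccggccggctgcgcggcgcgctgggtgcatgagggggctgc
ACO1: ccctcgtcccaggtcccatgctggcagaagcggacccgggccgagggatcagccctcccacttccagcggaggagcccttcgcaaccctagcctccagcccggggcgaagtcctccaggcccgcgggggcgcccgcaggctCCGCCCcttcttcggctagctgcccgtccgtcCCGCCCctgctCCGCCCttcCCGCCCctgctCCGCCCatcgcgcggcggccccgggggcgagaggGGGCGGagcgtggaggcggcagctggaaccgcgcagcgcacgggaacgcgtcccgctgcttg
They lie at chr9:4985022-4985321 on the plus strand (JAK2), chr9:19380187-19380486 on the minus strand (RPS6), chr9:23826191-23826490 on the minus strand (ELAVL2), chr9:27529765-27530064 on the minus strand (MOB3B) and chr9:32384393-32384692 on the plus strand (ACO1), and 274 to 300 of their bases are covered by the member region that gives their value. ACO1 held 6 GC boxes, JAK2, RPS6 and ELAVL2 held 1 each and MOB3B none. ELAVL2 also held 2 CCAAT boxes and 1 TATAAA. A GC box was found in 72.4% of 87 promoters (66 genes) that overlap a telomeric H1975 member and in 73.0% of 111 (93 genes) that overlap a centromeric one. All 35116 promoters of the same length, open or not, had it in 45.0%. Promoters that overlap counted regions elsewhere were not examined, so the gap is not read as a trait of the arm. CCAAT was found in 32.2%, 35.1% and 34.6%, and TATAAA in 9.2%, 5.41% and 11.5%.

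The position of the step in the H1975 AZD5153 libraries was read from a piecewise constant curve through the log2 differences from control of all 10971 chromosome 9 regions at the count minimum. The first level ran from the first region of the chromosome, at 10443, to 29045407, over 847 members with a median of -0.997, which is a ratio of 0.501. The next level began at 29332727 and stayed at a median of -0.30 up to 91.0 Mb in the long arm. The boundary was thus placed within a gap of 287 kb without members. Here the 847 members before it are called telomeric and the 1002 members after it centromeric. By the RefSeq annotation the gap lies over the end of LINGO2, a neuronal membrane protein gene at 27937617 to 29213601, and over the pseudogene PDK1P1. The last other protein-coding genes before it are C9orf72, a regulator of vesicle traffic known from motor neuron disease, and LOC124902135, and the first ones after it are ACO1, RIGI and TOPORS. The 2 stretches hold 109 and 102 protein-coding RefSeq genes.

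Regions next to the boundary, whose values also placed it, did not all show the step to the same degree. A region in the LINGO2 gene body at 28212889 to 28213390 had 7.58, 8.34 and 6.34 CPM in the controls and 0.774, 1.22 and 0.799 CPM in the AZD5153 libraries. The last member before the boundary, also in LINGO2 at 29044906 to 29045407, had 1.86, 1.35 and 1.35 CPM in the controls and 0.258, 0.348 and 0.342 CPM with AZD5153. Both were lower in each AZD5153 library than in any control, although the latter had a mean of only 6.67 counts per library. Between them, a region at 28234828 had 0.62, 0.94 and 0.54 CPM in the controls. With AZD5153 it had 0.39, 0.52 and 0.46 CPM, a log2 difference of -0.46 (of mean CPM with 0.2 added). The first member after the boundary, an intergenic region at 29332727 to 29333228, had 3.402, 3.09 and 2.83 CPM in the controls and 2.84, 3.31 and 3.08 CPM with AZD5153, so the groups overlapped. The members that follow it up to 30066280 differed by 0.87, 0.11, -0.59 and -0.86, at mean counts of 7.25 to 15.8. The last 25 members before the boundary had medians of -1.58, -1.15 and -1.55 in the 3 AZD5153 libraries relative to the control mean. The first 25 after it, spread thinly up to 32.4 Mb, had -0.13, -0.22 and -0.04. The next 25, up to 32.6 Mb, were at -0.50, -0.60 and -0.51, so that the level close to control was limited to the sparse part behind the boundary.

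The boundary did not move with a segment penalty of 5 or 20 in place of 10, with scaling to library size or to regions outside chromosome 9, or when any single library of both groups was left out. Each AZD5153 library alone gave it too, with levels of -0.97, -1.04 and -0.97. Restricting the curve to regions with a mean of at least 20 counts changed it: the first level then ended at 38.7 Mb, with 755 regions and a median of -0.82, and the next began at 39.5 Mb. The place of the boundary thus depended on whether regions of low count were kept. No other comparison had a boundary on 9p. The first level of the curve ended at 102 Mb for H1975 DTP against control and covered the whole chromosome for H1975 combo against DTP. In the other lines it ended between 108 Mb (PC9 DTP against control) and 136 Mb (HCC827 DTP against control), or covered all of chromosome 9 (PC9 AZD5153 against control).

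**Figure D1:**
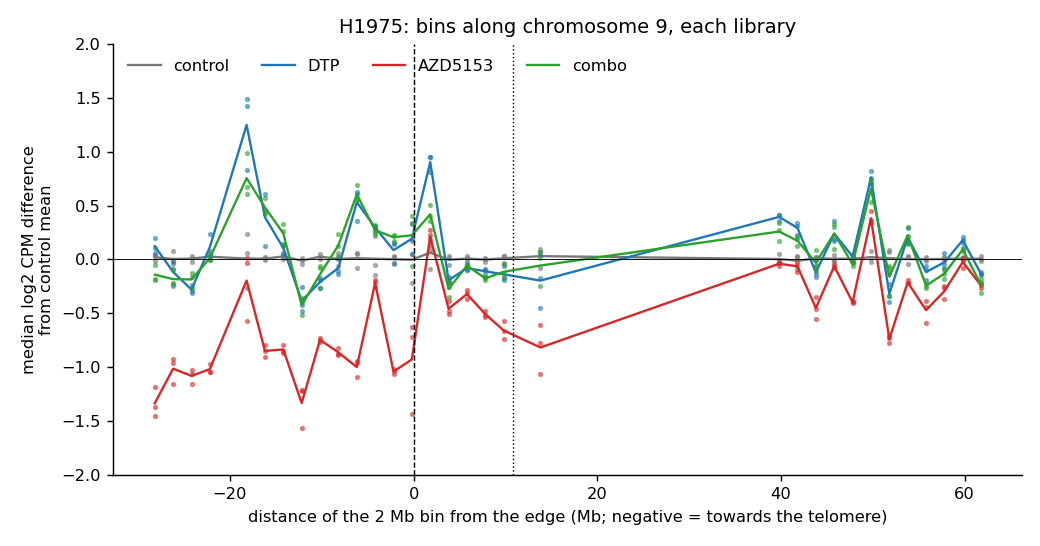
Median log2 CPM difference from the control mean in bins of 2 Mb along chromosome 9 in H1975 (vertical axis) against the distance of the bin from the boundary in Mb (horizontal axis); points are single libraries, lines are group means, the dashed line marks the boundary and the dotted line the 40 Mb limit. The AZD5153 line lies near -1 on the telomeric side, apart from bins of 5 members at -0.20 and -0.22, and between -0.32 and -0.66 from 32 to 40 Mb. Bins with fewer than 5 regions are not drawn.

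Along the telomeric stretch the level was uneven from bin to bin and below 0 in each. In bins of 2 Mb with at least 37 members, the mean of the 3 AZD5153 library medians ran from -1.34 (0 to 2 Mb, 63 members) to -0.75 (18 to 20 Mb, 69 members). The 3 bins at 8 to 12 Mb and 24 to 26 Mb, with 3 to 5 members each, lay at -0.20 to -0.27. After the boundary, the bin at 30 to 32 Mb (8 members) was at 0.21, and the 4 bins up to 40 Mb were at -0.46, -0.32, -0.51 and -0.66. Beyond 40 Mb, the 1466 regions up to the end of the second level had a median of -0.18, and all 9122 regions of chromosome 9 beyond 40 Mb had 0.29. The arm was not alone in its level. Of the 297 genome bins, 13 were at -1 or lower, 3 of them on 9p and 10 elsewhere, and the 4 bins of 9p stood at -1.37, -1.10, -1.16 and -0.58, ranks 3, 10, 9 and 41 from the lowest.

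Summed over the telomeric members, the controls of H1975 had 3819, 3826 and 3679 CPM and the AZD5153 libraries 1616, 1535 and 1594 CPM, a log2 difference of -1.26. DTP libraries had 2867, 3138 and 3018 CPM and combo libraries 3255, 3204 and 3328 CPM. The AZD5153 libraries were the lowest and no group overlapped another. Over the centromeric members the controls had 6264, 6295 and 5997 CPM and the AZD5153 libraries 4085, 3890 and 3964 CPM, a difference of -0.64. Of the 847 telomeric members, 749 lay below 0 (88.4%), and of the 1002 centromeric members 706 (70.5%). Among the 1553 members with enough counts for the fit across all regions, the median was -0.89 against -0.04 over all 191202 regions tested, and 1000 members were at -0.5 or lower, beside 34.9% of all tested regions. In 946 of the 1553 every AZD5153 library was below every control, beside 33.1% of all tested regions, and in 117 every one was above, beside 28.7%. The comparison chose the members, so nothing is read from these shares. Regions under the count minimum, which are no members, were lower in the telomeric stretch too. The 1087 of them there summed to 334 to 343 CPM in the controls and 181 to 199 CPM with AZD5153, and the 1058 of the centromeric stretch summed to 352 to 382 and 332 to 395 CPM.

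**Figure D2:**
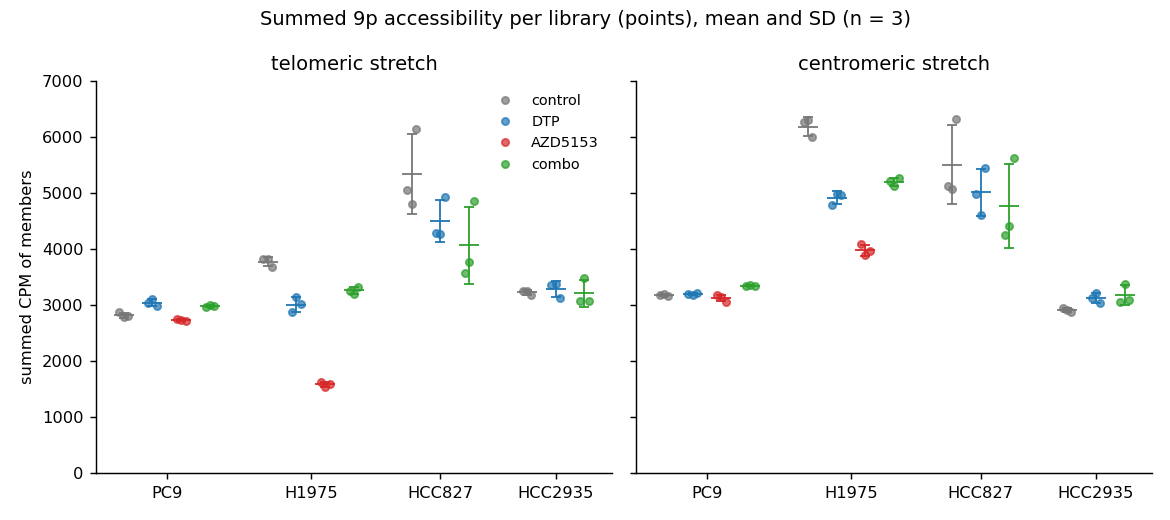
Summed CPM of the members (vertical axis, from 0) of the telomeric and the centromeric stretch for each line (horizontal axis); points are libraries, and bars are the mean and SD of 3. In H1975 the 3 AZD5153 libraries lie at 1535 to 1616 CPM in the telomeric stretch, below the 3679 to 3826 CPM of the controls, and in PC9 the 2 groups lie close together.

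Promoters were lowered less than the other classes of region in the H1975 AZD5153 libraries, given again without a test. Regions within 1 kb of a start, in gene bodies and between genes numbered 422, 959 and 468 in this line. In the telomeric stretch the median of 166 promoters was -0.62, that of 460 gene body regions -1.21 and that of 221 intergenic regions -0.97. In the centromeric stretch the medians were -0.16 (256 promoters), -0.51 (499 gene body regions) and -0.70 (247 intergenic regions). On the rest of chromosome 9 promoters also had the highest median of the 3 classes, at 0.45. Within the telomeric stretch, the lower, middle and upper parts of the members by mean count had medians of -0.86, -1.02 and -1.05.

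**Figure D3:**
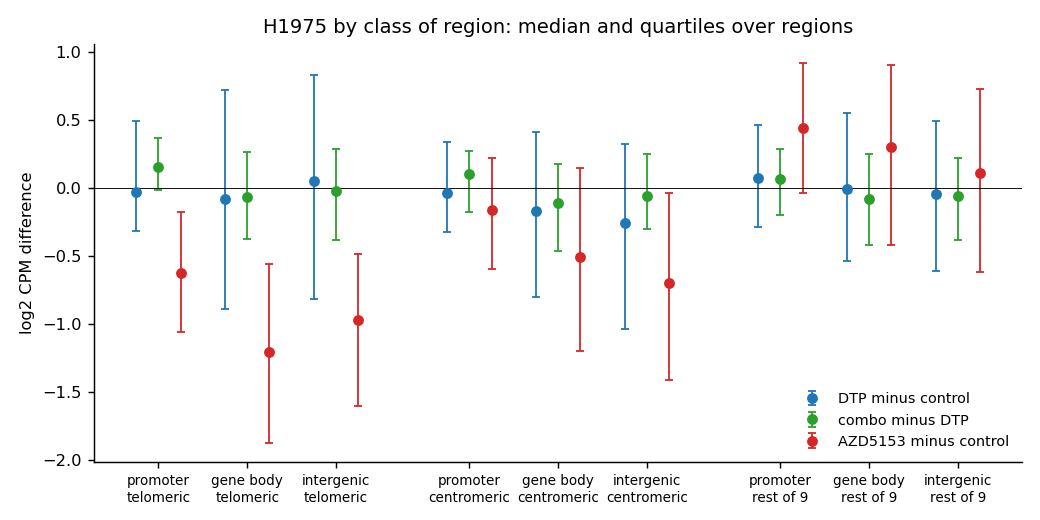
Median log2 CPM difference (points) and quartiles over regions (bars) by class of region, for the telomeric and centromeric stretches and the rest of chromosome 9 (9, horizontal axis) in H1975, for 3 comparisons. AZD5153 minus control lies lowest in telomeric gene bodies (-1.21) and highest in promoters of the rest of the chromosome (0.45), while the medians of the other comparisons stay between -0.26 and 0.16.

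Of 117 gene symbols in 6 lists covering the arm, 73 had a promoter among the H1975 members, 32 telomeric and 41 centromeric. In the telomeric stretch 31 of the 32 lay below 0 with AZD5153 (median -0.68), and in 27 of them all AZD5153 libraries were below all controls, with 1 promoter in the opposite order. In the centromeric stretch 30 of 41 lay below 0 (median -0.21), 21 of them without overlap and 3 in the opposite order. Of all 166 telomeric promoter members, 60.2% were lower and 7.23% higher without overlap, and of the 256 centromeric ones 40.6% and 16.4%. All tested regions of the genome stood at 33.1% and 28.7%. The comparison chose the members, so these counts are not read as a trait of the lists. In the innate immunity and cytokine list, 7 of 28 symbols (DDX58 and RIGI being 1 gene) had a promoter member, and the interferon genes themselves had none. JAK2, the kinase behind many cytokine receptors, had 30.0, 32.6 and 29.1 CPM in the controls and 16.6, 13.6 and 13.5 CPM with AZD5153 (log2 difference -1.07). CD274, which encodes the checkpoint ligand PD-L1, had 21.5, 24.3 and 23.3 against 14.97, 13.4 and 13.0 CPM (-0.74). In both genes the groups were separate. IL11RA, the interleukin 11 receptor in the centromeric stretch, had 33.7, 40.9 and 39.4 against 28.8, 28.6 and 27.0 CPM (-0.44), and CD72, the gene of a B cell surface protein, was level (0.00). Past the boundary DDX58 (RIGI), the sensor of viral RNA and picked out after its values were seen, had a difference of -1.24, the lowest of the 4 centromeric promoters of this list.

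Among 15 transcription and chromatin promoters, SMARCA2, an ATPase of the SWI/SNF complex at the telomeric end, had 40.2, 38.3 and 34.0 CPM in the controls and 20.3, 15.2 and 19.9 CPM with AZD5153 (-0.996). CREB3, a membrane-bound transcription factor in the centromeric stretch, had 54.0, 51.8 and 43.8 against 36.6, 34.1 and 41.4 CPM (-0.40), and ZBTB5, a zinc finger gene, had -0.39. Each of these was lower in every AZD5153 library. The lowest of all listed promoters, picked out after its values were seen, was ELAVL2, a neuronal RNA-binding protein: 14.7, 17.5 and 15.2 CPM in the controls and 2.97, 3.48 and 2.62 CPM with AZD5153 (-2.41). BNC2, a zinc finger gene, was the only telomeric promoter of the lists above 0, at 2.32, 2.29 and 2.56 against 2.58, 3.83 and 2.74 CPM (0.31). The 12 telomeric promoters of this list had a median of -0.67 and the 3 centromeric ones -0.39.

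The list for RNA, ribosome and protein quality control lies mostly past the boundary, with 3 telomeric promoters (median -0.58) and 15 centromeric ones (-0.24). RCL1, which processes ribosomal RNA, had 40.4, 45.9 and 41.8 CPM in the controls and 31.2, 27.2 and 27.0 CPM with AZD5153 (-0.58). CLTA, the clathrin light chain, had 56.3, 56.4 and 53.1 against 49.0, 48.4 and 43.5 CPM (-0.24), and the splicing factor gene SMU1 had -0.39. These strong promoters were lower in every AZD5153 library, by less past the boundary than before it. RPS6, a protein of the small ribosomal subunit, had 25.8, 25.3 and 21.3 against 14.2, 16.0 and 15.4 CPM (-0.67).

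Metabolic and mitochondrial promoters had a median of -0.86 in 6 telomeric genes and -0.08 in 12 centromeric ones. RRAGA, a GTPase of amino acid sensing, had 32.3, 33.9 and 31.7 CPM in the controls and 17.2, 14.98 and 16.4 CPM with AZD5153 (-1.002). In the centromeric stretch the mitochondrial genes ALDH1B1 and STOML2 had -0.20 and -0.18, and ACO1, the cytosolic aconitase gene directly past the boundary, had 13.1, 11.8 and 13.6 against 18.6, 12.4 and 16.4 CPM (0.32), with overlapping groups. On the telomeric side, MOB3B, a kinase adaptor gene of the adhesion list shown with ACO1 for its place next to the boundary, had 4.33, 3.50 and 4.04 against 2.06, 2.26 and 2.85 CPM (-0.70) without overlap. In the genome maintenance and cell division list, HAUS6, a mitotic spindle gene, had 24.3, 25.02 and 24.0 against 12.5, 13.8 and 17.7 CPM (-0.72), and FANCG, a DNA repair gene past the boundary, had -0.27. Its 6 telomeric promoters had a median of -0.60 and its 3 centromeric ones -0.04. In the adhesion and cytoskeleton list, with 2 telomeric (-0.87) and 4 centromeric promoters (-0.31), the signalling adaptor SHB had 0.14, the metalloprotease inhibitor RECK 0.08 and TPM2, a tropomyosin, -1.55.

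**Figure D4:**
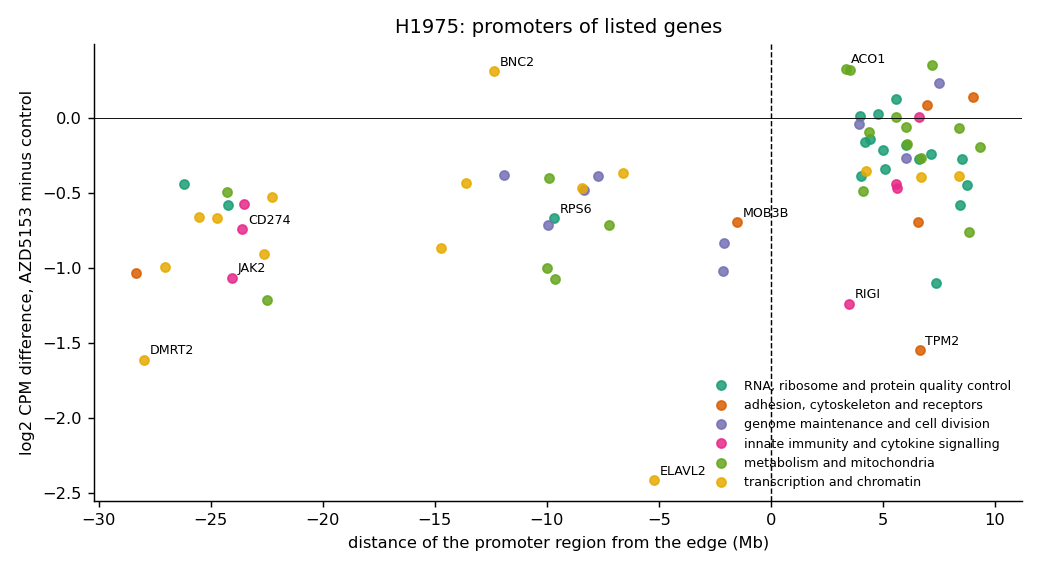
Log2 CPM difference, AZD5153 minus control, of the 73 listed promoters in H1975 (vertical axis) by distance from the boundary in Mb (horizontal axis), coloured by list. Of the 32 promoters on the telomeric side 31 lie below 0, BNC2 being the exception at 0.31, and ELAVL2 is lowest at -2.41.

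Single regions with the most extreme AZD5153 values in H1975 did not all follow the stretch they lie in. The promoter region of LURAP1L-AS1, an antisense RNA gene, at 12759793 to 12760294, had 10.4, 10.4 and 6.47 CPM in the controls and 0.387, 0 and 0.114 CPM with AZD5153. It was as low in DTP (0.112 to 0.567 CPM) and combo libraries (0 to 0.262 CPM). An intergenic region assigned to LOC107987064, at 38184188 to 38184689 in the centromeric stretch, had 15.2, 17.2 and 12.0 CPM in the controls, 0.129, 0.697 and 0.228 CPM with AZD5153 and 9.07 to 10.4 CPM in DTP libraries. Among the highest, an intergenic region assigned to TAF1L, at 32706377 to 32706878, had 0.928, 1.75 and 2.02 CPM in the controls and 11.6, 10.3 and 10.6 CPM with AZD5153, while DTP and combo libraries stayed at 1.13 to 2.13 CPM. A gene body region of LOC124902154 had 0.155, 0.404 and 0.135 CPM in the controls, from 5 counts in all, and 3.23, 2.44 and 2.62 CPM with AZD5153.

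In H1975 the DTP cells also had a lower summed level on the arm than the control, on both sides of the boundary. The same 3 control libraries entered the comparison that chose the stretch. Tests of DTP against them are therefore not independent of that choice. The summed level of all members was 9960 ± 247 CPM in the controls and 7925 ± 243 CPM in DTP (SD, n = 3 each), a log2 difference of -0.33 ± 0.03 (SE), with no overlap (exact two-sided permutation p = 0.1, the smallest that 3 against 3 allows, adjusted p = 0.208 over 27 tests). With library size only this difference shrank to -0.13, and as a median over members to -0.09. The telomeric and centromeric differences were -0.33 and -0.33, so there was no step. In the edgeR quasi-likelihood fit with Benjamini-Hochberg adjustment over all regions, 904 of 1553 tested members were called at an adjusted p under 0.05, 362 higher and 542 lower, beside 51.9% of all 191202 tested regions called (24.9% higher and 27.0% lower). The member median was -0.11 and that of all tested regions 0.02. With libraries summed, 713 members were called, beside 40.2% of all regions. The balance of directions depended on the scaling: under library size scaling 479 were higher and 452 lower, the median of all tested regions moved to 0.22 and that of the members to 0.08. Relative to the median of 9p it was 462 and 458.

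Among called members above the median count whose groups did not overlap, from which the largest rise and fall of each comparison were taken, the largest DTP fall in H1975 was an intergenic region at -3668 bases from the start of CD274, at 5446334 to 5446835. It had 20.9, 22.3 and 20.5 CPM in the controls and 1.54, 1.13 and 0.672 CPM in DTP, a log2 difference of -4.26 ± 0.19 (SE), with an edgeR adjusted p of 3.09e-58. It was as low in AZD5153 (1.03, 0.871 and 1.60 CPM) and combo libraries (0.787, 0.499 and 1.13 CPM), which is far below the level of the CD274 promoter itself in the same libraries. The largest rise was a gene body region of LOC124902129 at 20236601, with 3.20 to 6.49 CPM in DTP and 0 to 0.673 CPM in the controls, where 6 counts in all give no firm fold. Of the 73 listed promoters, 9 were called higher and 27 lower in DTP, beside 24.9% and 27.0% of all tested regions. As the share called among all promoters was not computed, these counts are not read as a trait of the lists. GLDC, a glycine cleavage enzyme gene, fell by 1.66 on the log2 scale (edgeR adjusted p = 3.2e-36), PDCD1LG2, the PD-L2 gene, fell by 1.69 (edgeR adjusted p = 5.49e-12) and IL11RA fell by 1.28 (edgeR adjusted p = 3.6e-31). DMRTA1, a transcription factor gene, rose by 1.21 (6.39e-07). These 4 were singled out after their values were seen. Library size scaling gave 18 promoters higher and 12 lower, and summing the libraries 6 and 9, so that the balance of directions depended on the scaling.

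Adding AZD5153 to H1975 persisters left the arm without the step seen in the AZD5153 group. The combo libraries summed to 8464 ± 131 CPM and the DTP libraries to 7925 ± 243 CPM (difference 0.10 ± 0.03, exact permutation p = 0.1, adjusted p = 0.208), without overlap. The telomeric difference was 0.12 and the centromeric one 0.08. With library size only the difference of all members was -0.00134. In edgeR, 331 of 1553 members were called, 188 higher and 143 lower, beside 21.0% of all tested regions called, with a median of -0.01 against -0.02 over all. Library size scaling gave 123 higher and 178 lower, against 256 and 99 relative to the median of 9p, and 89 members were called with libraries summed, beside 5.97% of all regions. Promoters of the lists were called higher in 31 of 73 and lower in 1, with 13 of the 18 in the RNA and protein quality control list higher, among them CLTA by 0.41, VCP (picked out after its values were seen), an ATPase that unfolds ubiquitinated proteins, by 0.40 and RCL1 by 0.32. All tested regions were called higher in 11.5% and lower in 9.48%. Promoters as a class had medians of 0.16 (telomeric), 0.11 (centromeric) and 0.07 (chromosome 9 beyond 40 Mb). Gene body regions beyond 40 Mb had -0.08. The share called among all promoters was not computed, so the counts are not read as a trait of the lists. The count was 19 higher and 2 lower with library size only, and 2 and 1 with libraries summed. The largest rise was a gene body region assigned to MIR4474, at 20512979 to 20513480, with 14.2, 13.1 and 14.9 CPM in combo and 4.09, 4.54 and 3.58 CPM in DTP (1.79 ± 0.15, edgeR adjusted p = 2.35e-22), and with 0.348 to 0.645 CPM in the AZD5153 libraries. The largest fall was a gene body region of PUM3, an RNA-binding protein gene, at 2765196 to 2765697, from 4.48, 7.26 and 6.38 to 1.44, 1.25 and 1.35 CPM (-2.17 ± 0.25, edgeR adjusted p = 1.21e-13).

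AZD5153 without osimertinib left the summed level of the same arm nearly unchanged in PC9, the other line that received it. The summed member level was 5995 ± 48.1 CPM in the controls and 5859 ± 78.9 CPM with AZD5153, a difference of -0.03 ± 0.01 (exact permutation p = 0.1, adjusted p = 0.208) without overlap. The telomeric difference was -0.04 and the centromeric one -0.02. In bins of 10 Mb from the telomere to 40 Mb, the medians were -0.05, -0.04, 0.18 and 0.01. The bin at 20 to 30 Mb ranked 297 of 298 genome bins from the lowest, so the arm was not level throughout. With library size only the sign turned, to 0.01. In edgeR 225 of 937 tested members were called, 107 higher and 118 lower, beside 25.8% of 126506 tested regions (11.2% higher, 14.6% lower), and the medians were 0.02 for members and 0.01 for all. With libraries summed, 124 were called, beside 14.1% of all. At the 420 telomeric H1975 members that overlap a PC9 member by at least 50% of both, the PC9 median was 0.09 where the H1975 median was -0.90. At the 454 matched centromeric members the medians were 0.03 and -0.44. The 2 lines thus differed at the same positions, in a comparison that chose the members on the H1975 side and is not tested. The largest fall in PC9 was an intergenic region at -13194 bases from the start of ERMP1, an endoplasmic reticulum peptidase gene, at 5846311, with 1.20, 1.62 and 2.35 against 14.6, 8.87 and 8.68 CPM (-2.57 ± 0.28, edgeR adjusted p = 7.2e-17), and the largest rise was an intergenic region assigned to LOC105375977 at 13665659 (1.88 ± 0.34, adjusted p = 1.07e-06). Of 78 listed promoters 2 rose and 11 fell, but none passed when libraries were summed. JAK2 had -0.25 (adjusted p = 0.13) and SMARCA2 fell by 0.36 (adjusted p = 0.00395).

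PC9 persisters had a higher summed level on the arm, mainly in the telomeric stretch, although the exact test could not reach the threshold. The summed level was 6238 ± 46.6 CPM in DTP and 5995 ± 48.1 CPM in the controls (0.06 ± 0.01, exact permutation p = 0.1, adjusted p = 0.208), with 0.11 in the telomeric stretch, where groups did not overlap, and 0.01 in the centromeric stretch, where they did. In bins of 10 Mb from the telomere to 40 Mb, the DTP medians were 0.08, 0.10, 0.32 and 0.00. The bin at 20 to 30 Mb ranked 291 of 298 genome bins from the lowest. In edgeR 252 members were called, 154 higher and 98 lower, beside 31.7% of all regions (15.4% higher, 16.4% lower). Relative to the median of 9p the split was 124 and 123, and with libraries summed 166 were called, beside 19.4%. The largest rise was the promoter region of SIT1, a lymphocyte adaptor gene, at 35651810, with 6.32, 9.54 and 7.76 CPM in DTP and 0.318, 1.01 and 0.992 CPM in the controls (3.23 ± 0.37, edgeR adjusted p = 1.5e-15). The largest fall was a gene body region assigned to SLC25A51, a mitochondrial carrier gene, from 9.53, 11.9 and 11.4 to 2.67, 2.06 and 2.25 CPM (-2.23 ± 0.26, adjusted p = 8.89e-15). GLDC fell here too, by 0.99, as the lowest of the 78 listed promoters, of which 8 rose and 2 fell (1 in each direction after summing libraries). Between combo and DTP, 165 members were called in PC9, 74 higher and 91 lower, beside 22.3% of all regions (10.6% higher, 11.7% lower), or 59 with libraries summed, beside 8.11%. The summed difference was 0.02 ± 0.01 (exact permutation p = 0.1, adjusted p = 0.208), which turned to -0.03 with library size only. A gene body region of MTAP, a methionine salvage gene, fell from 7.29, 6.70 and 7.76 to 1.46, 1.86 and 1.33 CPM (-2.21 ± 0.32, edgeR adjusted p = 1.46e-09), and the promoter of B4GALT1-AS1 rose from 5.10, 4.38 and 5.26 to 15.4, 17.8 and 15.2 CPM (1.70 ± 0.20, edgeR adjusted p = 1.53e-14). Of the listed promoters 14 rose and none fell (1 with libraries summed), CLTA by 0.42 and CD274 by 0.53 among them. All 342 promoter members had a median of 0.05 in this comparison and the 514 gene body members -0.11.

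HCC827 libraries of a group differed widely, and libraries with the same replicate number deviated together. The summed level was 10843 ± 1421 CPM in the controls, 9509 ± 778 CPM in DTP and 8826 ± 1441 CPM in combo, with overlapping groups and differences of -0.18 ± 0.13 (exact permutation p = 0.3) and -0.12 ± 0.15 (p = 0.5), both adjusted over the 27 tests to p = 0.426 and 0.614. In edgeR none of 655 tested members was called in DTP against control (64 at an unadjusted p under 0.05, 3 called by DESeq2), beside 0.0219% of 82309 regions (0.0158% higher, 0.00607% lower), and none in combo against DTP (19 at an unadjusted p under 0.05, none by DESeq2), beside 0.0% of all. Taken as pairs of the same number, the DTP differences were -0.13, -0.15 and -0.27, below 0 in each pair (mean -0.18 ± 0.04, SE of 3 pairs, exact sign-flip permutation p = 0.25, the smallest that 3 pairs allow). The combo differences were -0.24, -0.12 and 0.01 (mean -0.12 ± 0.07, exact sign-flip permutation p = 0.5). With the replicate number as a block, 38 members were called in DTP, 11 higher and 27 lower, beside 3.88% of all regions (2.16% higher, 1.72% lower), and again none in combo against DTP (56 at an unadjusted p under 0.05), beside 0.0304%. With libraries summed the counts were 96 and 21, beside 12.5% and 3.19%. The member medians were -0.22 in DTP and -0.12 in combo, against -0.09 and 0.03 over all tested regions, with -0.25 at the 446 members matched to the telomeric H1975 stretch, where H1975 with AZD5153 was at -1.04. Single libraries decided the size of these medians. That of DTP was -0.04 without control replicate 3 and -0.03 without DTP replicate 1. That of combo ran from -0.48 without combo replicate 3 to 0.07 without DTP replicate 3. The summed differences ran from -0.25 to -0.08 in DTP (-0.08 without control replicate 3) and from -0.25 to -0.04 in combo (-0.04 without combo replicate 1 and -0.25 without combo replicate 3). None of 67 listed promoters was called in either comparison with the edgeR fit, the block included, whereas 2 were called lower in DTP with libraries summed.

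In HCC2935 the persisters had more members called higher than lower, a balance that turned to 63 higher and 72 lower at a mean of at least 20 counts. The summed level was 6413 ± 225 CPM in DTP and 6132 ± 76.7 CPM in the controls (0.06 ± 0.03, exact permutation p = 0.2, adjusted p = 0.318), with overlap. The centromeric difference was 0.11, without overlap (exact permutation p = 0.1, adjusted p = 0.208). In edgeR 338 of 1058 tested members were called, 216 higher and 122 lower, beside 37.3% of 154179 regions (18.7% higher, 18.6% lower), or 311 with libraries summed, beside 32.9%. The member median was 0.16 against -0.01 over all. A gene body region of PUM3 at 2816432 to 2816933 rose to 8.17, 6.62 and 8.97 CPM from 0.218, 0.591 and 0.313 CPM, with 4 control counts and so no firm fold. An intergenic region at -5205 bases from the start of AQP3, a water and glycerol channel gene, fell from 22.3, 13.9 and 18.8 to 4.18, 6.12 and 3.43 CPM (-1.99 ± 0.23, edgeR adjusted p = 2.1e-09). Of 73 listed promoters 10 were called higher and 1 lower, the latter being GLDC, which fell by 1.16 (edgeR adjusted p = 2.31e-05). In combo against DTP, 83 members were called, 14 higher and 69 lower, beside 8.31% of all regions (1.9% higher, 6.4% lower), or 60 with libraries summed, beside 5.36%. Relative to the median of 9p the split was 24 and 61. The summed difference was -0.01 ± 0.06 (exact permutation p = 0.8). The largest fall was an intergenic region assigned to RANBP6, a nuclear import gene, at 6102402, from 15.8, 15.1 and 14.5 to 3.53, 3.03 and 3.42 CPM (-2.18 ± 0.21, adjusted p = 1.36e-09), and the largest rise was the promoter of RUSC2, a vesicle traffic gene, from 1.71, 3.31 and 2.86 to 5.58, 5.33 and 4.63 CPM (0.96 ± 0.29, edgeR adjusted p = 0.0262).

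**Figure D5:**
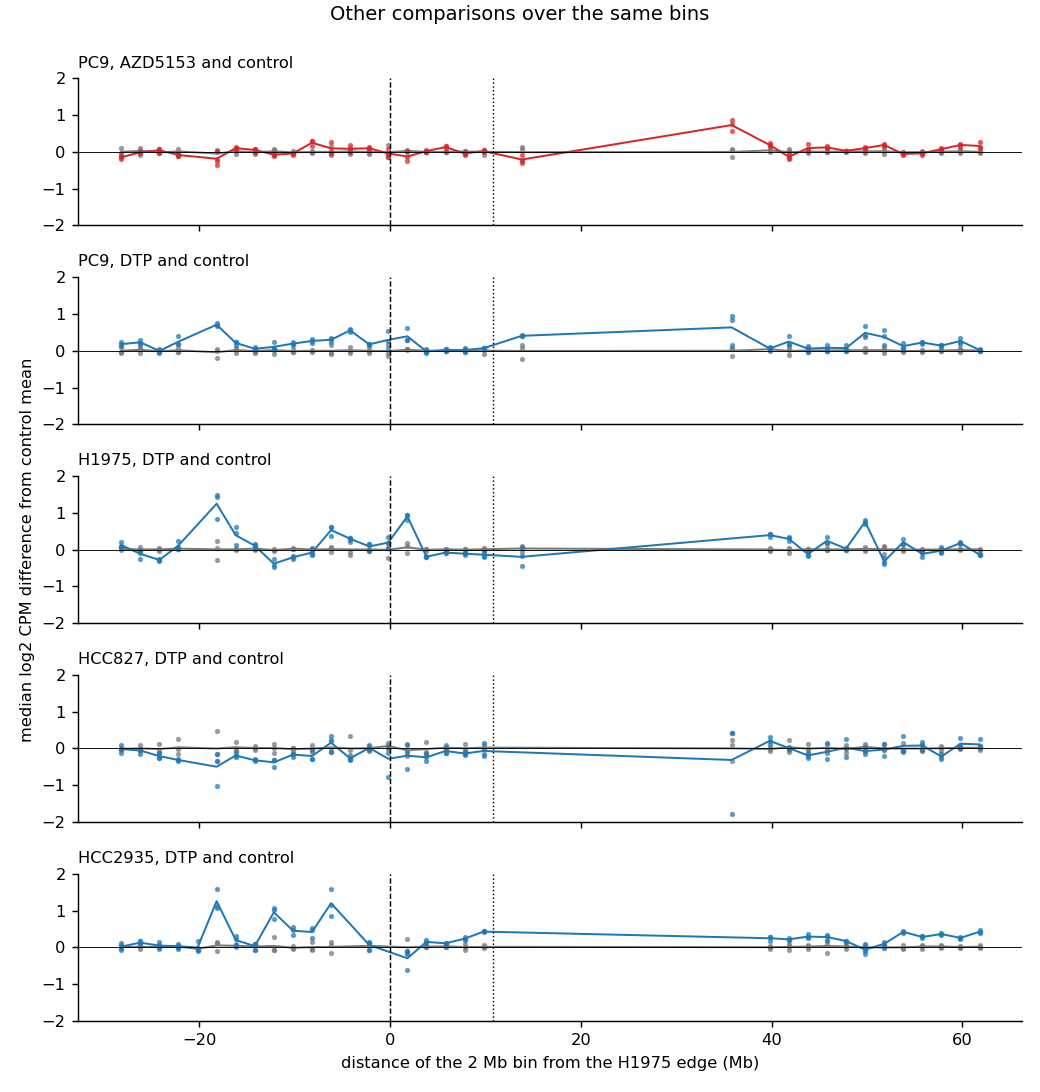
Median log2 CPM difference from the control mean in the same bins of 2 Mb (vertical axes) against distance from the H1975 boundary in Mb (horizontal axis), for AZD5153 in PC9 and DTP in each line; grey marks controls, points are libraries and lines group means. The piecewise constant curve placed no step at the boundary (dashed) in any of these comparisons, and the dotted line is the 40 Mb limit.

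Counts of tested members whose groups did not overlap, which need no model of the spread, can be set beside the shares of all tested regions. In PC9 DTP 217 of 937 were higher in every library and 137 lower, beside 20.8% and 20.8% of all regions. In PC9 combo against DTP 145 were higher and 140 lower (17.4% and 18.1%), and with AZD5153 174 were higher and 173 lower (17.8% and 19.7%). The PC9 members lay near the background apart from the lower side in DTP and combo. In H1975 DTP 395 of 1553 were higher and 563 lower (27.4% and 28.7%), and in combo against DTP 273 and 255 (17.6% and 16.3%). In HCC827 DTP 33 of 655 were higher and 90 lower (6.62% and 7.69%), and in combo against DTP 10 and 48 (1.9% and 5.62%). In HCC2935 DTP 294 of 1058 were higher and 179 lower (24.0% and 23.2%), and in combo against DTP 108 and 182 (11.1% and 15.3%). The lower side thus held a larger share of members than of all regions in H1975 DTP (36.3%) and HCC827 DTP (13.7%), and a smaller one in PC9 DTP (14.6%) and HCC2935 DTP (16.9%). Counts of H1975 DTP rest on the controls that also entered the choice of the stretch.

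Differences between lines in the change of the summed level were compared by permuting libraries within each line. There were 400 arrangements, with a smallest p of 0.005, and 39 tests in all. Such a permutation assumes no change on either side. A small p can thus come from a change on 1 side alone and is no test of equal changes. The DTP change was higher in PC9 than in H1975 by 0.39 (exact permutation p = 0.005, adjusted p = 0.0488) and lower in H1975 than in HCC2935 by 0.39 (p = 0.01, adjusted p = 0.0488). In the telomeric stretch PC9 exceeded H1975 by 0.44 (exact permutation p = 0.005) and HCC827 by 0.35 (p = 0.01), and in the centromeric stretch H1975 lay below HCC2935 by 0.44 (p = 0.005), each adjusted to 0.0488. The combo change in the telomeric stretch was lower in PC9 than in H1975 by 0.15 (exact permutation p = 0.01, adjusted p = 0.0488). In PC9 the AZD5153 change differed between persisters and untreated cells by 0.05 over all members (exact permutation p = 0.005, adjusted p = 0.0488) and by 0.09 in the centromeric stretch (p = 0.01, adjusted p = 0.0488). All 8 stood at the same adjusted p just under the threshold, and none passed with DESeq2 size factors (adjusted p of 0.065 to 0.319). Both PC9 differences turned in sign with library size only, to -0.04 over all members and -0.01 in the centromeric stretch, and likewise as medians over members. The telomeric differences of PC9 from HCC827 in DTP and from H1975 in combo lost the call in 10 and 7 of 12 fits without 1 library. The shuffling did not keep same-numbered HCC827 libraries together. Since the H1975 controls also entered the choice of the stretch, the DTP differences that include H1975 are not independent of it. The lines were counted in separate tables with their own regions, so each value is a change within a table.

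The members were not spread alike in the 4 lines. In HCC2935 no member lay between 21.5 and 22.5 Mb, from IFNE, an epithelial interferon gene, to DMRTA1, where PC9 had 31, H1975 58 and HCC827 45 members, and the highest mean of any region kept there was 1.0 count. HCC2935 also had none from 23.7 to 26.7 Mb (24, 17 and 13 members in the other lines) and from 29.2 to 31.0 Mb (15, 7 and 2). In the opposite sense, HCC2935 had 31 members in a stretch of 1.76 Mb from 7.84 Mb, near the phosphatase gene PTPRD, without members in PC9, and 28 and 23 in the matching empty stretches of H1975 and HCC827. The telomeric H1975 members had a counterpart in PC9 in 420 of 847 cases, in HCC827 in 446 and in HCC2935 in 442.

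The peak lists, called by the authors in each library, gave a second measure by numbers of peaks. In H1975 0.453% of control peaks and 0.231% of AZD5153 peaks lay in the telomeric stretch, and 0.501% and 0.398% in the centromeric stretch. All AZD5153 shares were below all control shares, as a description without a test. In DTP the share of the whole arm was 0.860% against 0.955% in the controls (exact permutation p = 0.1, the smallest possible), without overlap. These controls also entered the choice of the stretch. In PC9 the arm held 0.677% of control peaks, 0.714% with AZD5153 (exact permutation p = 0.2), a direction opposite to that of the summed level, and 0.720% in DTP (p = 0.1). HCC827 shares were 1.01% in the controls and 0.917% in DTP (exact permutation p = 0.6), and HCC2935 shares 0.613% and 0.756% (p = 0.2), with overlapping groups in both. The HCC2935 control lists held 100211, 204759 and 198689 peaks, with arm shares of 0.724%, 0.568% and 0.546%. At a −log10 q of at least 5, HCC2935 shares were 0.706% in the controls and 0.757% in DTP. There the PC9 DTP and control groups overlapped (0.734% against 0.710%, exact permutation p = 0.3). The H1975 DTP and control shares stayed apart (0.935% against 0.998%, exact permutation p = 0.1).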

How the data were processed

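The authors deposited 1 table of ATAC-seq read counts per region for each line, as raw counts in regions of 502 bp, and a peak list per library with the −log10 q-value the authors' peak caller gave each peak. The submitters' processing notes name hg38 and the tools BWA 0.7.17, SAMtools 1.9, deepTools 3.4, MACS2 2.2.6, featureCounts 2.0.0 and ChIPseeker 1.29.1, without their roles. Regions assigned to 2 genes are not reported here. The members and gene lists were chosen with earlier results of these data known.

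Counts were fitted per line over all regions passing edgeR's filter with the quasi-likelihood test (edgeR 4.0.16 in R 4.3.3, TMM scaling, Benjamini-Hochberg adjustment, threshold 0.05). The SE of a region's log2 difference was derived from the F statistic of this test. CPM used TMM library sizes, with a prior count of 2 where log2 CPM of single regions was taken. Summed levels were compared with exact two-sided permutation tests (scipy 1.17.1). The boundary came from optimal partitioning of log2 differences (penalty 10, at least 20 regions a segment, values limited to 3 robust SD around a running median of 51 regions). A promoter lay within 1 kb of a start or was so annotated by the authors. Named regions were, for each tested comparison, the largest rise and fall among called members above the median count of tested members whose groups did not overlap, and for H1975 AZD5153 the 2 highest and 2 lowest members above the median count, the regions next to the boundary and the largest gaps holding at least 10 members of another line. The named promoters were the 2 to 4 of each list with the highest mean count in H1975, with other genes said to be picked later. Scripts were tested on simulated data. Alternatives were other scalings and filters, DESeq2 1.42.0, a replicate block, summed libraries and each library left out, with those for differences between lines added after seeing the data. Same-numbered libraries deviated together only in HCC827 (r = 0.257 to 0.827 over 9 pairs, against -0.675 to 0.516 over 18 pairs of other numbers). These ranges overlap, and the numbers were taken as pairs there.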

Additional observations from a re-analysis of the deposited data

Results flagged for a closer look

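None of the following differences passed with DESeq2 size factors. Of 39 tested differences between changes of the summed level, 8 reached an adjusted p of 0.0488 by exact permutation within lines. That permutation assumes no change on either side, so its p is no test of equal changes. DTP differences that include H1975 use controls that also entered the choice of the stretch. Over all members, the DTP change was 0.39 higher in PC9 than in H1975, and the difference of H1975 from HCC2935 was -0.39. In the telomeric stretch, the DTP change in PC9 exceeded that in H1975 by 0.44 and that in HCC827 by 0.35, and the combo change in PC9 minus that in H1975 was -0.15. In the centromeric stretch, the DTP change in H1975 minus that in HCC2935 was -0.44. Within PC9, the change with AZD5153 was higher in persisters than in cells without osimertinib by 0.0537 over all members and by 0.0904 in the centromeric stretch. This direction rests on the scaling, since with library size only the differences were -0.0441 and -0.00745, and as medians over members -0.0397 and -0.0129. The spread between HCC827 libraries moves with the comparison that includes that line, and its part in the result was not tested. Same-numbered libraries of that line were not kept together in the permutation.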

How the results depend on the processing

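Of 526 alternatives for 40 main results, 423 kept direction and call or size, 39 moved, 38 lost the call and 26 turned in sign. Of 10151 alternatives for 678 named values, 463 lost the call, 96 gained it and 1 turned, the SMARCA2 region at 2014910 in H1975 DTP (0.0106 with library size only). The cause was not tested except where fewer regions or samples entered.

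The summed difference of PC9 combo against DTP turned to -0.0291 with library size only, -0.0207 as a median over members, -0.0679 outside promoters and -0.0106 without a count minimum. That of PC9 AZD5153 turned to 0.0150 with library size only and 0.0189 as a median, and that of H1975 combo to -0.00134 with library size only. For H1975 AZD5153 it moved to -0.62 with library size only, -0.67 as a median, -0.45 in promoters, -1.21 outside promoters and -0.80 without a minimum. For HCC2935 combo it turned to 0.0061 with DESeq2 size factors, 0.0138 with TMM outside chromosome 9, 0.16 in promoters and 0.0437 at a mean of at least 20 counts, and ran from -0.0624 to 0.0206 with 1 library left out.

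With a filter at a mean of 20 counts, members called became 83 (PC9 DTP), 66 (PC9 combo), 96 (PC9 AZD5153), 460 (H1975 DTP), 218 (H1975 combo), 4 (HCC827 DTP), 135 (HCC2935 DTP) and 46 (HCC2935 combo). With DESeq2 they became 151, 56 and 117 in PC9, 126 in H1975 combo, 3 in HCC827 DTP and 30 in HCC2935 combo. With libraries summed they became 166, 59 and 124 in PC9, 89 in H1975 combo, and 96 and 21 in HCC827. Without a filter they became 1 in HCC827 DTP and 49 in HCC2935 combo. The replicate block gave 38 in HCC827 DTP, and changed no other count of calls by over 1.5 times (252, 162 and 217 in PC9, 896 and 320 in H1975, 346 and 89 in HCC2935). With 1 library left out, calls ran from 105 to 135 in PC9 combo (lowest without combo replicate 2), 215 to 267 in H1975 combo (lowest without combo replicate 3) and 47 to 65 in HCC2935 combo (47 without combo replicate 2, 48 without DTP replicate 2, 50 without DTP replicate 1). H1975 members at -0.5 or lower with AZD5153 became 524 relative to the median of 9p and 439 at a mean of 20 counts.

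The alternatives for the differences between lines or between treatments of PC9 were chosen after seeing the data. With DESeq2 size factors all 8 lost the call: over all members 0.372 (PC9 against H1975, DTP), -0.388 (H1975 against HCC2935, DTP) and 0.0478 (PC9 treatments), in the telomeric stretch 0.423 (PC9 against H1975, DTP), 0.288 (PC9 against HCC827, DTP) and -0.146 (PC9 against H1975, combo), and in the centromeric stretch -0.432 (H1975 against HCC2935, DTP) and 0.0845 (PC9 treatments). With TMM outside chromosome 9, calls were lost at 0.0540 and 0.0907 (PC9 treatments), 0.369 (PC9 against HCC827) and -0.138 (PC9 against H1975, combo). The PC9 treatments turned to -0.0441 and -0.00745 with library size only and to -0.0397 and -0.0129 as medians. The telomeric combo difference lost its call at -0.0999 with library size only and -0.0861 as a median, and the telomeric DTP difference of PC9 from H1975 at 0.206 as a median. With 1 library left out these ran, over all members, from 0.363 to 0.408, from -0.423 to -0.369 and from 0.0429 to 0.0618, in the telomeric stretch from 0.404 to 0.469, from 0.244 to 0.422 and from -0.178 to -0.113, and in the centromeric stretch from -0.460 to -0.417 and from 0.0753 to 0.101.

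The boundary moved to 38.7 Mb at a mean of 20 counts. Its level was -0.82 there and with library size only, and -1.04 with AZD5153 replicate 2 alone. The peak share difference, in percentage points, turned at a −log10 q of at least 5 to 0.00362 in PC9 combo, -0.00682 in H1975 combo and 0.0131 in HCC2935 combo. With 1 library left out it ran from -0.0107 to 0.00105 in PC9 combo and from -0.0177 to 0.0117 in HCC2935 combo.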
